A study of Mus musculus with 46 samples.

Results

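Matricellular proteins are secreted into the extracellular matrix but act mainly as signals between matrix and cell rather than as its scaffold. They bind integrins, CD44, CD47, syndecans, collagen and growth factors, and in the adult heart most are made at low levels until injury, pressure load or scar formation, when fibroblasts and macrophages are known sources. The genes described here are Spp1 (osteopontin), Tnc (tenascin C), Postn (periostin), the thrombospondins Thbs1, Thbs2 and Thbs4, the CCN family members Ccn4 (WISP1) and Ccn5 (WISP2), Sparc (osteonectin) and Cthrc1 (collagen triple helix repeat containing 1). They were taken from the table of read counts by gene name, and make up 10 of its 55359 genes. Each name had 1 identifier in the table.

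RNA of 46 adult mouse hearts was sequenced after tamoxifen, to follow how transcripts change once floxed Lmna, which encodes the A-type lamins under the nuclear envelope, is deleted in heart muscle cells, and whether cGas, a sensor of DNA in the cytosol, plays a part. Every mouse, controls included, carried Myh6MCM Tg/0 (spelled My6MCM in the labels of the NEBNext F/F libraries), a Cre recombinase driven by the promoter of the cardiomyocyte gene Myh6 and active in the presence of tamoxifen. Every mouse also received tamoxifen in corn oil at 6 to 8 weeks of age, injected into the peritoneum on 4 consecutive days as 100 µL of a 4 mg/mL solution. Time is counted after tamoxifen. The time course, made with the NEBNext poly(A) kit, held Lmna F/F and Lmna +/+ hearts at 1 week (n = 4 and 5), 11 days (n = 2 and 3) and 2 weeks (n = 5 and 7). The QuantSeq set, in which a tag is read near the 3' end of each transcript, was taken at 2 weeks and held Lmna F/+; cGas +/+ (n = 6), Lmna F/F; cGas +/+ (n = 6), Lmna F/+; cGas null/null (n = 4) and Lmna F/F; cGas null/null hearts (n = 4). The controls therefore differ between the sets: Lmna +/+ in the time course, and Lmna F/+, with a floxed allele of their own, in QuantSeq. Non-cardiomyocytes keep Lmna in this model, so whole-heart RNA mixes deleted and undeleted cells. In whole-heart RNA, more or fewer cells of a type and more or less RNA per cell cannot be told apart.

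RefSeq promoter windows on build GRCm38.p6, each holding 250 bases before and 50 bases after a transcript start, were at hand for 6 of the 10 genes (Spp1, Tnc, Postn, Thbs2, Thbs4 and Sparc). The windows of Spp1, Tnc and Postn, with the largest changes among those 6, and of Thbs2, which was not called with all libraries in any comparison, are printed 5' to 3' on the strand of the gene. Capitals mark matches, on either strand, to 5 short motifs of AP-1, TEAD, RUNX and SMAD factors and the TATA box, whose letters follow the sequences.
Spp1, chr5:104434861-104435160, plus strand: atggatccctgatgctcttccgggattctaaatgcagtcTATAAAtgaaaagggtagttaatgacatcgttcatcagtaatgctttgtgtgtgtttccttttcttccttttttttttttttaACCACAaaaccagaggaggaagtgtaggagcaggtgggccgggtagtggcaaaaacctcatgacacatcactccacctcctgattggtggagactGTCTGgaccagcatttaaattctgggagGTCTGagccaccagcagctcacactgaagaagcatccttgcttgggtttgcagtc
Tnc, chr4:64046966-64047265, minus strand: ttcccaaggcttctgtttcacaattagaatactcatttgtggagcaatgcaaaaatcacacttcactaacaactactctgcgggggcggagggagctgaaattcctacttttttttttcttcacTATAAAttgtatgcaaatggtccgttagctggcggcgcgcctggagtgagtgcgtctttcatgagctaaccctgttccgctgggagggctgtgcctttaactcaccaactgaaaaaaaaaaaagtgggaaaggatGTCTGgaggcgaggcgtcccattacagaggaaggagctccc
Postn, chr3:54360857-54361156, plus strand: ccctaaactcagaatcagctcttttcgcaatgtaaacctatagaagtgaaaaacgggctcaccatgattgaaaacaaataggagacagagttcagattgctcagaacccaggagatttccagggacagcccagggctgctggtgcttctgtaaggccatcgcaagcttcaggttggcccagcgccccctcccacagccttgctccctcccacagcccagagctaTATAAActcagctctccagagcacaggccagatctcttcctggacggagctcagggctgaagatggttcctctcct
Thbs2, chr17:14694213-14694512, minus strand: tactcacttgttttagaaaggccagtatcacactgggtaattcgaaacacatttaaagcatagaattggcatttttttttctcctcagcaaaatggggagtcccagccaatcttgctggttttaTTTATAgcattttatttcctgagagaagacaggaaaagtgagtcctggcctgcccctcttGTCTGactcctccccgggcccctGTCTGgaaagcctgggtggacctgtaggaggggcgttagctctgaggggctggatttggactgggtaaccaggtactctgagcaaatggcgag
Each of these 4 windows held 1 match to the TATA box TATAAA, a motif present in 13.6% of all 32851 windows. In Postn it ran from 26 to 21 bases before the start (positions -26 to -21), while in Spp1 it lay at -211 to -206 and in Tnc and, on the opposite strand, Thbs2 at -126 to -121. The Spp1 window held 1 match to the RUNX motif TGTGGT (-128 to -123), which 16.8% of all windows hold. It also held 2 matches to the SMAD motif CAGAC, which is in 49.6% of all windows. The Thbs2 window held 2 SMAD matches as well, the Tnc window 1, and the Postn window 0. None of the 4 held the AP-1 motif TGANTCA, present in 7.81% of all windows. Nor did any hold the TEAD motif GGAATG, present in 14.7%. Of the other 2 windows, that of Thbs4 held 2 TEAD matches that overlap by 1 base and 2 SMAD matches, and that of Sparc 1 RUNX match and 2 SMAD matches. These matches describe letters in short windows and no binding was measured.

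Total counts were 8477358 to 25856892 per NEBNext library and 22099181 to 33993289 per QuantSeq library. The Lmna transcript averaged 33.3 ± 4.38 CPM (SD, n = 4) in F/F and 59.0 ± 9.22 (n = 5) in +/+ hearts at 1 week, and 85.2 ± 26.9 (n = 5) and 113 ± 7.02 (n = 7) at 2 weeks. The groups overlapped at 2 weeks, with F/F hearts from 42.2 to 108 CPM and +/+ hearts from 105 to 125, and the difference missed the threshold (log2 -0.46 ± 0.21, edgeR adjusted p = 0.0983). At 11 days it was 58.3 and 58.4 CPM in the libraries labelled F/F but ran from 52.1 to 118 in those labelled +/+, so the labels did not separate there either. The QuantSeq tag of Lmna averaged 22.0 ± 3.01 CPM in F/+ against 20.5 ± 4.44 in F/F hearts when cGas was intact and 23.7 ± 2.54 against 22.2 ± 5.87 when it was null. These tags did not separate the genotypes and cannot check the labels if they lie outside the deleted part. The Cgas tag averaged 0.876 ± 0.258 CPM in F/F; cGas null/null (n = 4) and 2.88 ± 0.765 in F/F; cGas +/+ hearts (n = 6). This difference was not called (log2 -1.71 ± 0.33, edgeR adjusted p = 0.260). In F/+ hearts the Cgas tag averaged 0.565 ± 0.243 CPM without and 1.45 ± 0.666 with cGas, also not called (log2 -1.54 ± 0.40, edgeR adjusted p = 0.993). Among F/F hearts at 2 weeks in the time course, replicate 1 stood apart: it was the lowest of 5 for 9 of the 10 genes, while replicate 3 was the highest for 8. Replicate 1 also had the largest share of mitochondrial reads of the 5 (28.9%, against 9.16% to 15.2%) and the least Lmna (42.2 CPM, against 82.8 to 108); their part in its low values was not tested. Among F/+; cGas +/+ hearts, replicate 6 was the highest of 6 for 7 of the 10 genes. Both are named beside the results they touch. All values per library below are normalised CPM, that is counts adjusted for library size, and fold changes, standard errors (SE) and Benjamini-Hochberg adjusted p-values come from edgeR's quasi-likelihood test over all genes of a kit, with a threshold of 0.05. An increase by 1 on the log2 scale is a doubling.

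At 2 weeks, 9 of the 10 matricellular genes were higher in Lmna F/F than in Lmna +/+ hearts, all but Thbs2. Across all 15627 genes tested 16.2% were called higher in this comparison. The median log2 fold change was 2.85 over the 10 genes and 0.04 over all genes. The 10 genes were chosen with earlier results of these data known. Here and in the comparisons below, shares and medians over all genes are therefore given for reference and do not test the 10 genes as a set. The changes ranged from 1.84 times the +/+ mean for Sparc, the most abundant of the 10, to 197 times for Spp1. Spp1, Tnc and Cthrc1, each below 4 CPM in all 7 +/+ hearts, changed most. Ccn4 was also below 4 CPM in all 7. It rose by 2.03 on the log2 scale, less than the more abundant Thbs1 (3.29), Postn (3.08) and Thbs4 (2.63).

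Spp1 encodes osteopontin, a phosphorylated glycoprotein that binds integrins and CD44 and is made by activated macrophages. It stood at 8.25, 119, 395, 182 and 130 CPM in F/F replicates 1 to 5, and in +/+ hearts the lowest value was 0.351, the median 0.658 and the highest 2.57. All 5 F/F hearts lay above all 7 +/+ hearts, replicate 1 by the smallest margin. Means were 167 ± 142 CPM (SD, n = 5) and 0.848 ± 0.772 (n = 7), and the log2 fold change was 7.12 ± 0.73 (SE, edgeR adjusted p = 7.38e-07). The reads behind the +/+ values were 7 to 56 per library, against 147 to 14956 in F/F. Markers of macrophages moved with it: their summed level was 920 to 3938 CPM in F/F and 543 to 822 in +/+ hearts, with 9 of 10 markers called higher and none at 0. In both groups the heart with the highest marker sum (F/F replicate 3, +/+ replicate 5) also had the highest Spp1, and F/F replicate 1 had the lowest of both among F/F hearts. The part of these cells in the result was not tested.

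Tnc encodes tenascin C, a hexameric glycoprotein of developing and injured tissue that loosens the adhesion of cells to matrix. Its CPM were 6.56, 132, 211, 76.7 and 83.3 in F/F hearts and 0.370 at the lowest, 1.32 at the median and 3.68 at the highest in +/+ hearts. Again all F/F hearts lay above all +/+ hearts. The log2 fold change was 5.76 ± 0.60 (SE, edgeR adjusted p = 8.68e-07), from a mean of 1.63 ± 1.04 to one of 102 ± 75.6 CPM. Postn encodes periostin, a protein that binds collagen and integrins, promotes collagen cross-linking and marks activated cardiac fibroblasts. It was read at 58.1, 460, 369, 205 and 176 CPM in F/F and at 12.2, 34.9 and 57.6 (lowest, median, highest) in +/+ hearts. The groups did not overlap, though F/F replicate 1 exceeded the highest +/+ heart by under 1 CPM. Postn rose by 3.08 ± 0.47 on the log2 scale (SE, edgeR adjusted p = 5.16e-05).

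Cthrc1, a secreted protein of activated fibroblasts that is known to limit collagen deposition, was near the limit of detection in +/+ hearts. Its counts there were 1 to 6 reads per library, 25 in all 7 (95% exact Poisson interval 16.2 to 36.9, counting error only). In F/F hearts it stood at 0.449, 15.5, 15.8, 5.40 and 3.89 CPM, against at most 0.276 CPM in +/+ hearts. Replicate 1 lay close to the +/+ range and the other 4 far above it. Cthrc1 rose by 5.30 ± 0.69 (log2, SE, edgeR adjusted p = 9.42e-06). Without F/F replicate 1 the log2 fold change was 7.95 for Spp1, 6.46 for Tnc and 5.95 for Cthrc1.

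The 3 thrombospondins differed from each other. Thbs1, a trimeric glycoprotein that activates latent TGF-beta and binds CD47 and CD36, was read at 10.2, 51.3, 182, 117 and 93.1 CPM in F/F hearts. In +/+ hearts its lowest value was 3.16, its median 5.29 and its highest 11.5. F/F replicate 1 lay inside the +/+ range and the other 4 above it. Thbs1 rose by 3.29 ± 0.46 (log2, SE, edgeR adjusted p = 2.02e-05). Platelets store much thrombospondin 1, and the summed platelet and megakaryocyte markers were 30.4 to 87.9 CPM in F/F and 15.8 to 27.8 in +/+ hearts, with 1 of 5 tested markers higher and 2 lower and 1 of the 6 listed at 0 in all +/+ hearts; their part in the Thbs1 value was not tested.

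Thbs4, a pentameric thrombospondin of tendon and loaded muscle that acts in the endoplasmic reticulum stress response of the heart, was tight in +/+ hearts, from 6.37 to 8.64 CPM with a median of 6.93. In F/F hearts it stood at 7.18, 49.9, 90.3, 62.8 and 54.8 CPM. Replicate 1 was indistinguishable from +/+ by range and the other 4 lay far above it. Thbs4 rose by 2.63 ± 0.34 (log2, SE, edgeR adjusted p = 9.34e-06), and by 3.18 ± 0.18 without replicate 1. Thbs2, a trimeric thrombospondin of fibroblasts that limits vessel growth and matrix metalloproteinase activity, was read at 24.4, 21.0, 16.8, 18.9 and 15.6 CPM in F/F and at 11.6, 22.1 and 29.7 (lowest, median, highest) in +/+ hearts. The F/F values lay within the +/+ range. The log2 fold change of Thbs2 was -0.04 ± 0.19 (95% interval -0.44 to 0.35, edgeR adjusted p = 0.886), with its sign turning to 0.24 with limma on the deposited TPM and to 0.02 within 1 of the 2 sequencing pools, KIUC035.

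Of the CCN proteins, which carry modules that bind growth factors, integrins and heparan sulfate, Ccn4 (WISP1, a target of Wnt signalling) was read at 1.91, 4.30, 6.41, 5.37 and 2.25 CPM in F/F hearts. In +/+ hearts it was 0.474 at the lowest, 0.803 at the median and 1.41 at the highest. The groups did not overlap. It rose by 2.03 ± 0.34 (log2, SE, edgeR adjusted p = 0.000105). Ccn5 (WISP2), which lacks the C-terminal module of its family and is known to oppose CCN2 in cardiac fibrosis, was read at 7.74, 22.8, 27.4, 22.5 and 12.7 CPM in F/F hearts. Among +/+ hearts it ran from 5.55 over a median of 6.63 to 16.0, the last in replicate 5, so the groups overlapped. Ccn5 rose by 1.23 ± 0.33 (log2, SE, edgeR adjusted p = 0.00701). This call rested in part on F/F replicate 2, without which Ccn5 changed by 1.04 with an edgeR adjusted p of 0.0819.

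Sparc, a collagen chaperone that is abundant in the resting heart, was read at 753, 1349.5, 1485, 1119.8 and 1139.9 CPM in F/F hearts and at 456, 669 and 759 CPM (lowest, median, highest) in +/+ hearts. F/F replicate 1 lay at the top of the +/+ range and the other 4 above it. Sparc rose by 0.86 ± 0.21 (log2, SE, edgeR adjusted p = 0.00341), the smallest change among the 9 genes called.

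The 2-week libraries came from pools KIUC033 (2 F/F, among them replicate 1, and 5 +/+ hearts) and KIUC035 (3 F/F and 2 +/+). In KIUC035 the F/F and +/+ hearts did not overlap for 9 genes, again all but Thbs2, and in KIUC033 for 6 genes (Spp1, Tnc, Postn, Thbs1, Ccn4 and Cthrc1). The same count was not made over all genes. With so few hearts in a pool many genes can separate by chance, so these counts are not read as particular to the 10 genes. The ratio of the means was 384 in KIUC035 and 67.4 in KIUC033 for Spp1, 101 and 38.8 for Tnc, 11.8 and 6.44 for Postn, 9.88 and 3.98 for Thbs4, and 43.5 and 46.2 for Cthrc1. Tested within KIUC033 alone, 4 genes were called higher (Spp1, Tnc, Postn and Thbs1, edgeR), against 9 over both pools, while Cthrc1 did not pass the low-count filter there. Of all genes, 301 of 13970 tested were called higher in that pool. Within KIUC035 the 9 genes were all called, among 2316 of 15068 genes in all.

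**Figure D1:**
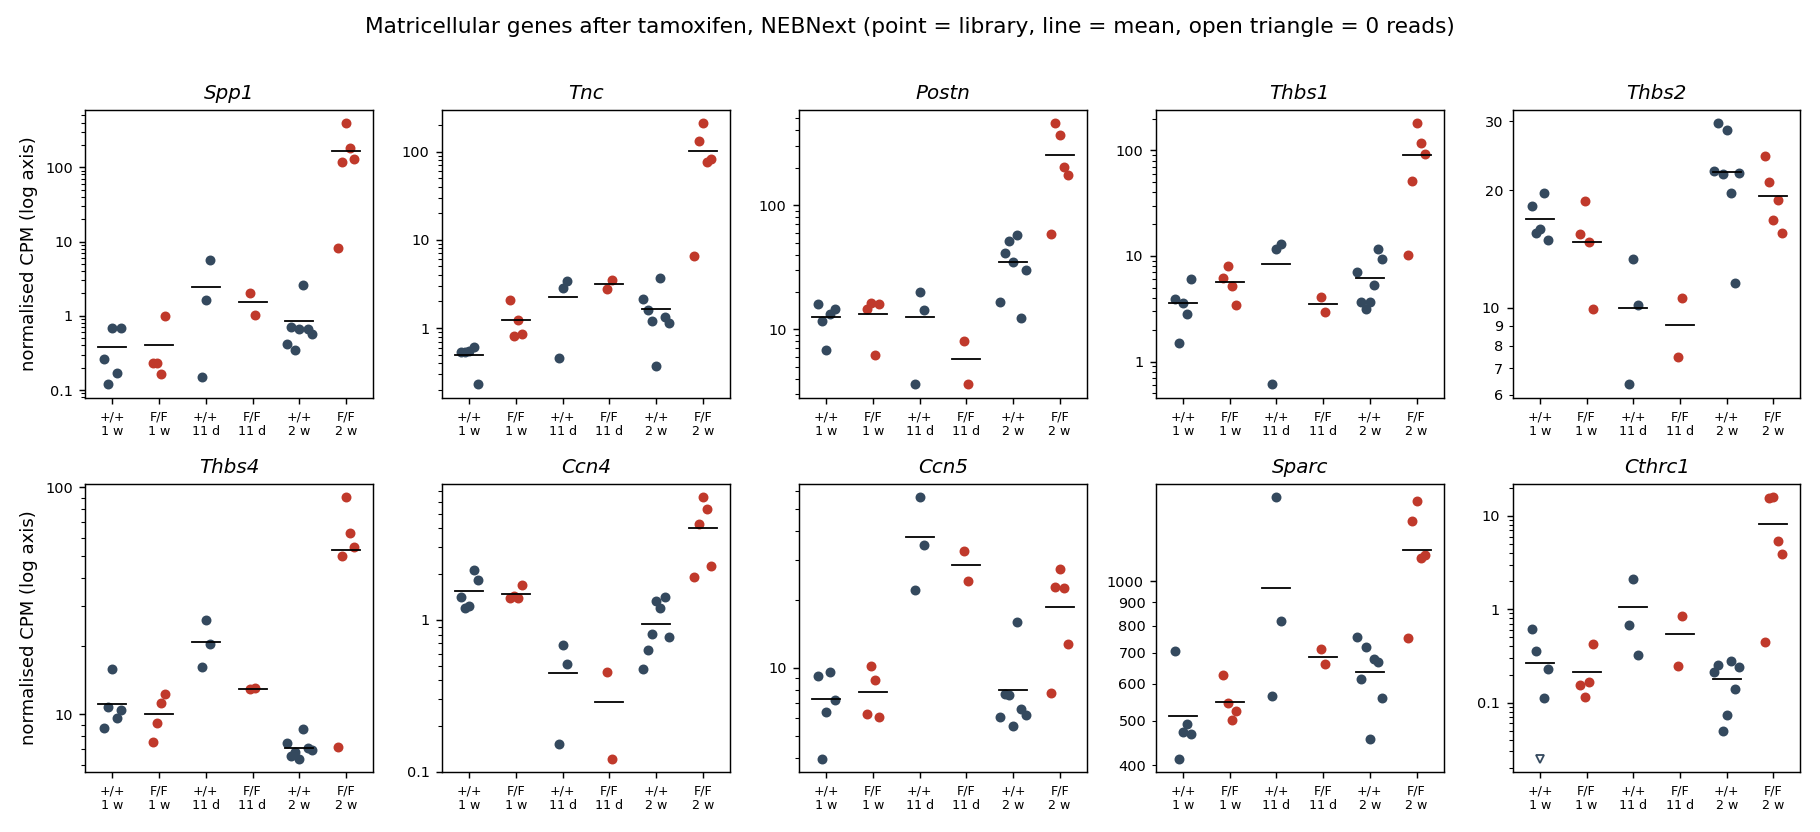
Normalised CPM (log axes, each panel with its own range) of the 10 genes in the 26 NEBNext libraries, by Lmna genotype and time after tamoxifen (w, weeks; d, days). Points are libraries (red F/F, dark blue +/+), lines are group means and the open triangle is a library with 0 reads. At 2 weeks the F/F mean lies above the +/+ mean in all panels but Thbs2, and replicate 1 is the low red point in 9 panels.

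Levels can be compared between genes on the deposited TPM, which divide by transcript length. In +/+ hearts at 2 weeks Sparc stood at 453 ± 81.7 TPM (SD, n = 7), followed by Postn at 17.4 ± 7.97, Ccn5 at 7.51 ± 3.20 and Thbs2 at 6.11 ± 1.42. Ccn5 and Thbs2 did not differ beyond their spread. Spp1 (0.905 ± 0.793), Tnc (0.372 ± 0.228), Ccn4 (0.303 ± 0.119) and Cthrc1 (0.251 ± 0.127) all stood below 1 TPM on average, and the last 3 did not differ beyond their spread. In F/F hearts (n = 5) Sparc stood at 1114 ± 394 TPM, Spp1 at 261 ± 249 and Postn at 175 ± 112. Below them came Thbs4 (38.0 ± 24.8), Thbs1 (36.3 ± 29.5), Tnc (32.99 ± 27.2), Ccn5 (24.2 ± 12.9) and Cthrc1 (15.9 ± 14.03), within each other's spread between hearts. That spread does not decide the order within a heart. Cthrc1 stood below Thbs4 and Tnc in each F/F heart. Thbs2 (6.88 ± 0.650) and Ccn4 (1.79 ± 1.07) were the least abundant. The TPM of the 10 genes added up to 491 per heart on average in +/+ and to 1707 in F/F hearts. Taken in each heart and then averaged, the share of Sparc in this sum was 92.0% in +/+ and 69.8% in F/F hearts. The same average share was 0.187% and 12.4% for Spp1, and 3.67% and 9.55% for Postn.

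Other genes of the same biology are given from 3 lists, at 2 weeks in the time course. Of 22 other matricellular genes listed, 14 passed the low-count filter, and 6 of these were higher and 1 lower (median log2 fold change 0.26). Fstl1, a follistatin-like glycoprotein of the SPARC family, rose from 123 to 409 CPM (log2 1.63 ± 0.27, edgeR adjusted p = 0.000100), and Tgfbi, a relative of periostin, by 1.55 ± 0.32. The CCN genes Ccn2 and Ccn1, early targets of YAP and serum response factor, rose by 1.34 ± 0.31 and 1.04 ± 0.27, and Thbs3 by 0.91 ± 0.27. Of 14 receptors 8 were higher and 0 lower (median 0.62). Cd44, a receptor of osteopontin and hyaluronan, rose from 8.00 to 40.8 CPM (2.14 ± 0.24, edgeR adjusted p = 1.97e-06), and the integrin subunit Itga4 by 2.04 ± 0.39. Sdc4 (syndecan 4), Cd47 and Itgav rose by 1.29 ± 0.27, 0.58 ± 0.13 and 0.82 ± 0.19. Of 14 inducers of these genes (TGF-beta ligands and receptors and transcription factors) 6 were higher and 1 lower (median 0.55). Runx1 rose by 2.14 ± 0.32, Tgfb2 by 1.23 ± 0.24, Tgfbr1 by 1.03 ± 0.19, Tgfbr2 by 0.86 ± 0.21 and Runx2 by 1.65 ± 0.44.

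Markers of cell identity at 2 weeks are given for reference. Of 10 fibroblast identity markers 4 were higher and 1 lower, with summed levels of 2435 to 4136.5 CPM in F/F and 2286 to 4342 in +/+ hearts. None was at 0 in all hearts of a group. The fibroblast sum thus overlapped between genotypes where the sum of macrophage markers did not. Cardiomyocyte markers summed to 35515 to 63256 CPM in F/F and 76184 to 95153 in +/+ hearts, and 6 of 7 were lower. Endothelial markers were lower at 3 of 8 (median -0.36), smooth muscle and pericyte markers higher at 1 and lower at 1 of 7, and atrial markers higher at 1 of 7. Of 5 tendon and valve and 7 epicardial and mesothelial markers tested edgeR called 0, with 0 at an unadjusted p under 0.05. The part of these cells in the matricellular genes was not tested.

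At 1 week, 0 of the 10 genes were called by edgeR in either direction, with 0 of them at an unadjusted p under 0.05 and 0 called by DESeq2. Over all 15627 genes edgeR called few (0.0256%), while 1539 had an unadjusted p under 0.05. DESeq2 called 13 higher and 7 lower over all genes. Spp1 stood at 0.232, 0.231, 0.166 and 0.991 CPM in F/F and at 0.266, 0.119, 0.684, 0.167 and 0.688 in +/+ hearts, overlapping throughout. Tnc was the gene whose groups did not overlap: it was read at 2.09, 0.809, 1.22 and 0.849 CPM in F/F and at 0.532, 0.535, 0.547, 0.614 and 0.229 in +/+ hearts. Its log2 fold change was 1.27 ± 0.92 (95% interval -0.66 to 3.21, edgeR adjusted p = 0.648), on 12 to 27 reads per F/F and 2 to 11 per +/+ library. Thbs1 changed by 0.70 ± 0.53 (edgeR adjusted p = 0.663), with 3.40 to 8.09 CPM in F/F and 1.49 to 6.08 in +/+ hearts. For the other 8 genes the log2 fold change was -0.23 for Cthrc1, -0.20 for Thbs2, -0.14 for Thbs4, -0.13 for Ccn4, 0.09 for Postn, 0.10 for Sparc, 0.11 for Ccn5 and 0.24 for Spp1. The intervals were narrow for the abundant genes (-0.37 to 0.57 for Sparc) and wide for those of few reads (-2.74 to 3.23 for Spp1).

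At 11 days, where 1 library labelled +/+ had less Lmna than both labelled F/F, edgeR called 0 of the 10 genes and 0 of 15627 genes in all (0% of those tested), while 0 of the 10 genes and 1302 of all had an unadjusted p under 0.05. DESeq2 called 0 of the 10, and 5 higher and 25 lower over all genes. Spp1 stood at 2.01 and 1.04 CPM in the libraries labelled F/F and at 0.152, 1.62 and 5.61 in those labelled +/+. Tnc stood at 2.79 and 3.47 against 0.455, 2.81 and 3.41 CPM, and Postn at 8.00 and 3.59 against 3.64, 19.9 and 14.3. The libraries labelled +/+ spread widely, and replicate 1 among them was the lowest of 3 for 9 of the 10 genes. Thbs4 was the gene without overlap, at 12.9 and 13.0 against 16.1, 26.02 and 20.5 CPM (log2 -0.66 ± 0.47, edgeR adjusted p = 0.737). With so few libraries many genes can separate by chance, and separation was not counted over all genes. That of Thbs4 is therefore not read as particular to it. The log2 fold change was -1.13 ± 0.70 for Thbs1, -1.05 ± 1.03 for Cthrc1, -0.52 ± 0.65 for Ccn4, -0.49 ± 0.31 for Sparc, -0.39 ± 0.46 for Ccn5 and -0.14 ± 0.29 for Thbs2, with edgeR adjusted p-values from 0.686 to 0.930. With no low-count filter, Postn and Thbs1 were called lower, where 159 of all 31988 genes tested were called lower and 42 higher. The median over the 10 genes was -0.59, and over all genes -0.07. Atrial markers summed to 526 and 553 CPM in the libraries labelled F/F and to 842 to 3163 in those labelled +/+, and smooth muscle and pericyte markers to 481 and 944 against 485 to 2959; their part was not tested.

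The Lmna effect was larger at 2 weeks than at 1 week for 7 of the 10 genes by the test of the difference itself, a call made for 6.52% of all genes. The difference between the log2 effects was 6.88 ± 1.93 for Spp1 (edgeR adjusted p = 0.0215), 5.53 ± 1.35 for Cthrc1 (0.0101), 4.49 ± 1.23 for Tnc (0.0194) and 2.98 ± 0.70 for Postn (0.00857). It was 2.77 ± 0.50 for Thbs4 (edgeR adjusted p = 0.00208), 2.60 ± 0.71 for Thbs1 (0.0197) and 2.16 ± 0.52 for Ccn4 (0.00917). For Ccn5 (1.13 ± 0.50, edgeR adjusted p = 0.138), Sparc (0.76 ± 0.31, 0.109) and Thbs2 (0.16 ± 0.28, 0.757) the difference was not called. For Thbs2 it was -0.01 without covariates. Leaving out F/F replicate 2 of 2 weeks left 4 of the 7 calls, while the genes called higher over all genes fell from 1019 to 582. Since the 1-week and 2-week libraries were sequenced in separate pools, levels are not compared across times.

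In the QuantSeq set with cGas, 5 of the 10 genes were higher in Lmna F/F; cGas +/+ than in Lmna F/+; cGas +/+ hearts: Spp1, Tnc, Postn, Thbs1 and Thbs4. Over all 14812 genes tested 3.74% were called higher. The median log2 fold change was 0.86 over the 10 genes and -0.01 over all genes. Spp1 was read at 1.93 to 26.3 CPM with a median of 5.75 in F/F (n = 6) and at 0.126 to 0.857 with a median of 0.193 in F/+ hearts (n = 6). All 6 F/F hearts lay above all 6 F/+ hearts, and replicates 1 and 5 (26.3 and 22.7 CPM) stood above the other F/F hearts. The log2 fold change was 4.59 ± 0.55 (SE, edgeR adjusted p = 6.09e-05). Tnc ran from 2.61 over 4.37 to 14.9 CPM (lowest, median, highest) in F/F and from 0.142 over 0.252 to 1.80 in F/+ hearts, without overlap, and rose by 3.23 ± 0.60 (edgeR adjusted p = 0.00315). Postn ran from 23.2 over 44.5 to 104 CPM in F/F and from 6.05 over 8.34 to 38.4 in F/+ hearts. Its groups overlapped through F/+ replicate 6 alone, at 38.4 CPM, and it rose by 1.87 ± 0.44 (edgeR adjusted p = 0.0172).

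Thbs1 ran from 8.02 to 15.7 CPM in F/F (median 11.3) and from 4.87 to 7.37 in F/+ hearts (median 6.71), without overlap, and rose by 0.74 ± 0.16 (log2, SE, edgeR adjusted p = 0.0109). Thbs4 ran from 12.6 to 35.7 CPM (median 17.8) and from 7.76 to 12.1 (median 8.78), also without overlap, and rose by 0.99 ± 0.22 (edgeR adjusted p = 0.0105). Ccn5 ran from 2.46 to 5.44 CPM in F/F and from 0.811 to 2.41 in F/+ hearts, again without overlap, but missed the threshold (0.85 ± 0.25, edgeR adjusted p = 0.0557). Ccn4 (0.86 ± 0.29, edgeR adjusted p = 0.0905), Sparc (0.48 ± 0.18, 0.133) and Thbs2 (0.47 ± 0.24, 0.299) were not called, and their groups overlapped. For Thbs2 the 95% interval was -0.04 to 0.99.

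Cthrc1 showed the weight of 1 library. Its counts in F/+ hearts with cGas were 0 in 3 libraries, 3 in the next 2 together and 51 in replicate 6, or 2.19 CPM there against at most 0.0840 in the other 5. In F/F hearts it ran from 0.348 over 0.587 to 1.59 CPM, on 9 to 47 reads. The F/F hearts therefore all lay above 5 F/+ hearts and all below the remaining one. The log2 fold change was 0.77 ± 0.97 (edgeR adjusted p = 0.720) with all libraries and 4.52 ± 0.87 (0.00389) without F/+ replicate 6. Without it 8 of the 10 genes were called higher, with Thbs2 (0.79 ± 0.19, edgeR adjusted p = 0.0145) and Ccn5 (1.01 ± 0.25, 0.0199) added, and 712 of all 14812 genes were, against 554 with it. Leaving out F/F replicate 4 also gave 8 of the 10 genes, among 796 of all, there with Ccn4 (0.94, edgeR adjusted p = 0.0438), Ccn5 (0.96, 0.0168) and Sparc (0.56, 0.0384) added and Cthrc1 not called (0.90, 0.643). In replicate 6 the summed epicardial and mesothelial markers were 47.1 CPM, against 6.25 to 22.8 in the other 5 F/+ hearts, and platelet markers 118 against 47.3 to 68.5. Atrial markers summed to 1209 CPM in replicate 6 and to 2342 in replicate 4, against 131 to 149 in the other 4 hearts; their part was not tested. In the other direction, leaving out F/+ replicate 1 left 2 genes called, among 176 of all 14812 genes. Leaving out F/+ replicate 3 left 3, among 183 of all.

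**Figure D2:**
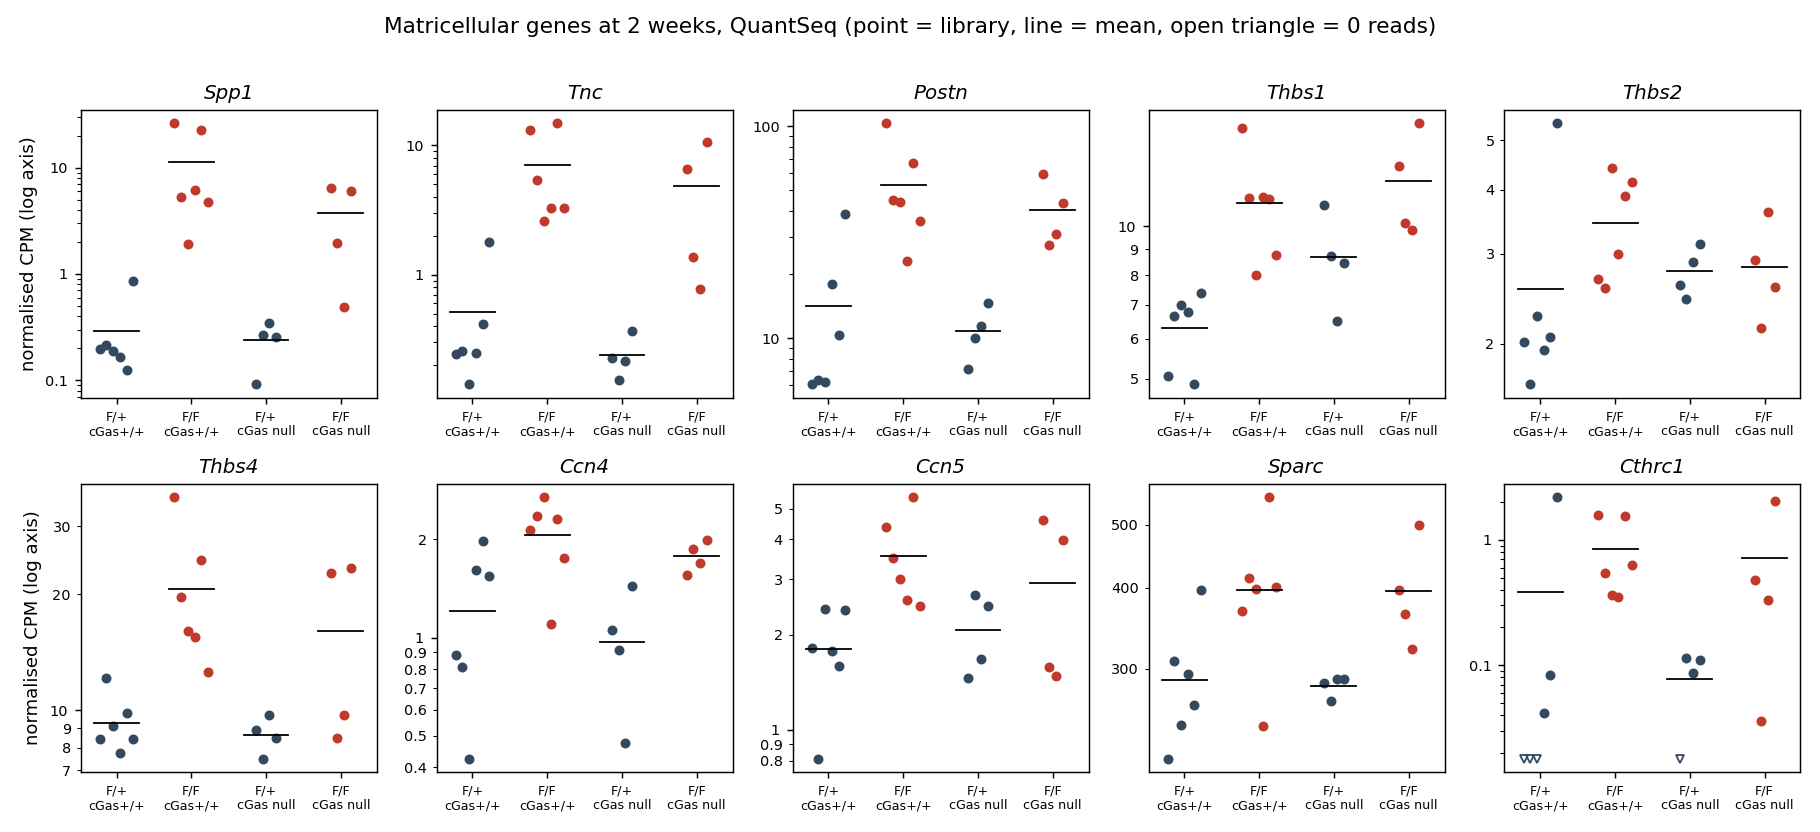
Normalised CPM (log axes, each panel with its own range) of the 10 genes in the 20 QuantSeq libraries at 2 weeks, by Lmna and cGas genotype. Points are libraries (red F/F, dark blue F/+), lines are group means and open triangles are libraries with 0 reads. The high dark blue point of F/+; cGas +/+ in the panels of Spp1, Tnc, Postn, Thbs2 and Cthrc1 is replicate 6.

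Without cGas, 2 of the 10 genes were called higher in Lmna F/F than in Lmna F/+ hearts, Spp1 and Tnc, where 0.500% of all genes were called higher. The median log2 fold change was 0.91 over the 10 genes and -0.02 over all genes. Spp1 was read at 6.39, 1.97, 0.494 and 6.04 CPM in F/F; cGas null/null hearts and at 0.0914, 0.268, 0.345 and 0.258 in F/+; cGas null/null hearts. Each F/F heart lay above each F/+ heart, replicate 3 by the least. The reads of Spp1 were 12 in F/F replicate 3 and 2 to 8 per F/+ library. Spp1 rose by 4.45 ± 0.68 (log2, SE, edgeR adjusted p = 0.00428). Tnc was read at 6.59, 1.36, 0.782 and 10.7 CPM in F/F and at 0.229, 0.153, 0.215 and 0.369 in F/+ hearts, again without overlap, and rose by 4.59 ± 0.78 (edgeR adjusted p = 0.00787). The reads of Tnc were 19 in F/F replicate 3 and 4 to 10 per F/+ library. In both genes F/F replicates 1 and 4, the 2 males, were high and replicates 2 and 3, the 2 females, low. All 4 F/+; cGas null/null hearts were male, so the fit takes its sex term from the other groups. Without covariates, Spp1 had a log2 fold change of 3.92 and an edgeR adjusted p of 0.0636.

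The other 8 genes were not called without cGas. Postn was read at 59.8, 27.6, 31.2 and 43.4 CPM in F/F and at 7.18, 10.1, 11.4 and 14.6 in F/+ hearts, without overlap (log2 1.92 ± 0.53, edgeR adjusted p = 0.0928). Thbs4 was read at 22.6, 8.49, 9.72 and 23.4 against 8.87, 7.49, 9.74 and 8.48 CPM, with replicates 1 and 4 high and the other F/F hearts within the F/+ range (1.09 ± 0.27, edgeR adjusted p = 0.0572). Ccn4 (0.65 ± 0.36, edgeR adjusted p = 0.592) and Sparc (0.45 ± 0.22, 0.500) did not overlap between genotypes either, while Thbs1 (0.63 ± 0.20, 0.173) and Ccn5 (0.72 ± 0.31, 0.414) did. Cthrc1 was read at 0.479, 0.0358, 0.329 and 2.04 CPM in F/F and at 0, 0.115, 0.0862 and 0.111 in F/+ hearts (3.29 ± 1.34, edgeR adjusted p = 0.358). The log2 fold change of Thbs2 was -0.09 ± 0.31 (edgeR adjusted p = 0.961), turning to 0.02 without covariates and to 0.07 with limma.

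The question whether the Lmna effect depends on cGas is addressed by the difference between the 2 effects, for which 0 of the 10 genes and 0% of all genes were called by edgeR. An unadjusted p under 0.05 was found for 0 of the 10 and 215 of all genes, and DESeq2 also called 0. The effect without cGas minus the effect with it was -0.14 ± 1.00 on the log2 scale for Spp1 (95% interval -2.26 to 1.99), 0.05 ± 0.71 for Postn (-1.47 to 1.58) and -0.11 ± 0.27 for Thbs1 (-0.68 to 0.46). It was 0.11 ± 0.35 for Thbs4 (-0.64 to 0.86), -0.02 ± 0.29 for Sparc (-0.65 to 0.60) and 1.36 ± 1.03 for Tnc (-0.85 to 3.56). Cthrc1 had the widest interval (2.52, -1.17 to 6.21), and without F/+; cGas +/+ replicate 6 its sign turned to -1.02. Thbs2 was at -0.56 (-1.42 to 0.30), Ccn4 at -0.21 (-1.24 to 0.81) and Ccn5 at -0.14 (-1.01 to 0.74). These intervals leave room for differences of 1 log2 unit or more in either direction for Spp1, Postn and Cthrc1. They do so upwards only for Tnc, and downwards only for Thbs2, Ccn4 and Ccn5. The sign was negative for Spp1 and Thbs1 and positive for Postn and Thbs4, and it turned for Postn (-0.22, limma on the deposited values) and Thbs4 (-0.25, no covariates). These differences also depend on the sex term, since all F/+; cGas null/null hearts were male. The plain ratio of mean CPM, F/F over F/+, was 15.5 without and 38.5 with cGas for Spp1. For Tnc it was 20.1 without and 13.7 with cGas.

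Within Lmna F/F hearts, cGas null/null and +/+ hearts were compared directly, and edgeR called 0 of the 10 genes and 0% of all genes. An unadjusted p under 0.05 was found for 1 of the 10 and 850 of all genes. Cgas itself was not called, so 0 calls cannot be read as no effect of cGas loss. Over all genes DESeq2 called 1 higher and 4 lower, with 0 of the 10 among them, while edgeR with no low-count filter called 15 higher and 78 lower and 1 of the 10 (Spp1, -1.57, adjusted p = 8.79e-09). The 1 gene at an unadjusted p under 0.05 was also Spp1, with 0.494 to 6.39 CPM without cGas (n = 4) and 1.93 to 26.3 with it (n = 6). The ranges overlapped, and 3 of the 4 null hearts lay above the lowest cGas +/+ heart. Its log2 fold change was -1.59 ± 0.47 (95% interval -2.59 to -0.60, edgeR adjusted p = 0.850), and by unadjusted p it ranked 35 of 14812 genes. The summed macrophage markers of the same hearts were 383 to 804 CPM without and 581 to 1418 with cGas; their part was not tested. Sparc was near 0 (0.00 ± 0.19, 95% interval -0.41 to 0.41), turning to -0.0062 with DESeq2. The other 8 genes lay between -0.76 ± 0.54 (Tnc) and 0.14 ± 0.17 (Thbs1): Thbs4 at -0.42, Postn at -0.39, Ccn5 at -0.38, Thbs2 at -0.29, Cthrc1 at -0.24 and Ccn4 at -0.18, with edgeR adjusted p-values from 0.878 to 0.983.

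Within Lmna F/+ hearts edgeR again called 0 of the 10 genes and 0% of all genes for cGas null/null against cGas +/+. An unadjusted p under 0.05 was found for 1 of the 10 and 616 of all genes, and Cgas itself was again not called. DESeq2 called 1 gene in all and 0 of the 10, and edgeR with no low-count filter called 45 higher and 48 lower, with 2 of the 10 among them (Tnc and Cthrc1, both lower). The 1 gene at an unadjusted p under 0.05 was Tnc, at 0.153 to 0.369 CPM without and 0.142 to 1.80 with cGas (log2 -2.12 ± 0.92, edgeR adjusted p = 0.993). The wide range with cGas came from F/+ replicate 6, and the other 5 F/+ hearts with cGas lay between 0.142 and 0.420 CPM. Without replicate 6 the log2 fold change was -1.11 for Tnc, and that of Cthrc1 went from -2.76 ± 1.53 to 0.60. All 4 null hearts were male, against 2 of the 6 with cGas. The fitted values therefore depend on a sex term taken from the other groups, and can differ from the ratio of the means. Mean Spp1 was 0.240 CPM without and 0.291 with cGas. Of the other genes Spp1 was at -1.45 ± 0.85, Thbs4 at -0.53, Postn at -0.45, Ccn5 at -0.25, Sparc at 0.03, Ccn4 at 0.03, Thbs1 at 0.26 and Thbs2 at 0.27, with edgeR adjusted p-values from 0.993 to 0.997. The signs of Postn, Ccn4, Ccn5 and Sparc turned under at least 1 alternative setting. These 4 comparisons share hearts with each other, so they are given side by side and not set against one another.

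**Figure D3:**
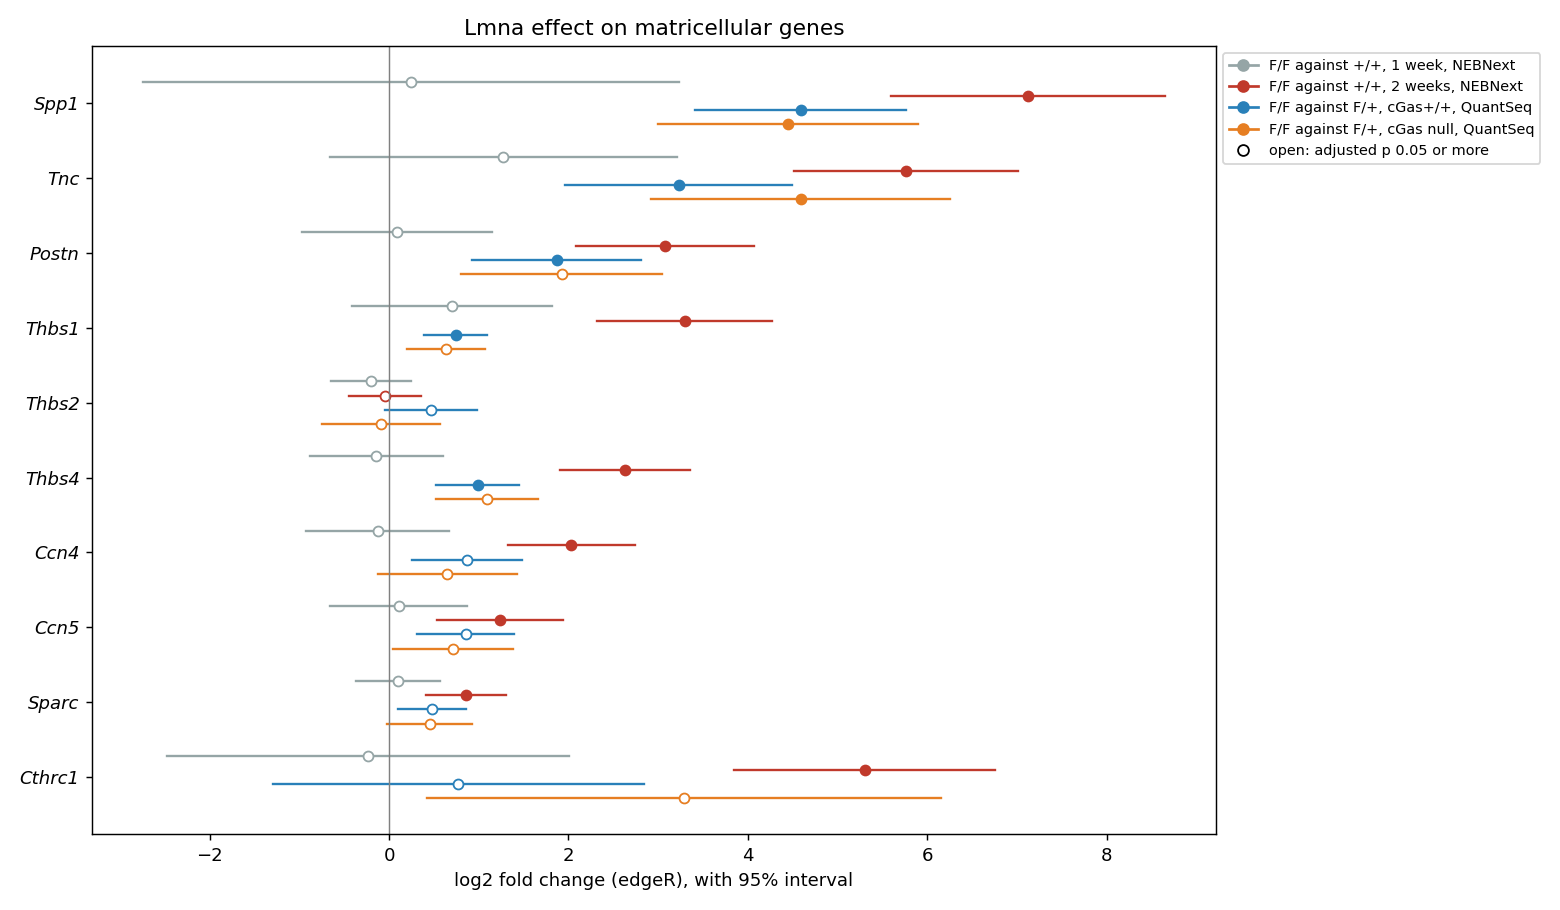
Log2 fold changes by edgeR (points) with 95% intervals (bars) for the 10 genes in 4 comparisons of Lmna F/F with its control: 1 week and 2 weeks in NEBNext, and with and without cGas in QuantSeq. Filled points passed an adjusted p of 0.05 and open points did not. Spp1 and Tnc are filled in the 3 comparisons made at 2 weeks, and Thbs2 is open in all 4.

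The same lists were read in QuantSeq. With cGas, 2 of 15 other matricellular genes tested were higher and 0 lower, Fstl1 (1.04 ± 0.22, from 79.1 to 162 CPM, edgeR adjusted p = 0.00717) and Tgfbi (0.99 ± 0.22, adjusted p = 0.0131). Ccn2 was at 1.19 ± 0.37 (edgeR adjusted p = 0.0658). Of 14 receptors 2 were higher, Cd44 (1.16 ± 0.24, edgeR adjusted p = 0.00794) and Itgav (0.67 ± 0.17, adjusted p = 0.0253), and of 14 inducers 0, with Runx1 at 0.72 ± 0.28 (adjusted p = 0.152). Without cGas 0 members of the 3 lists were called, and Cd44 came nearest (1.24 ± 0.30, edgeR adjusted p = 0.0571). Macrophage markers were higher at 8 of 10 with cGas, with sums of 581 to 1418 CPM in F/F and 366 to 473 in F/+ hearts and a median log2 fold change of 1.00. Without cGas 0 of 10 were called, with sums of 383 to 804 and 339 to 570, while 9 of 10 had an unadjusted p under 0.05 and the median was 0.79. The difference between the effects with and without cGas was called for 0 of the 10 macrophage markers by edgeR, with 0 at an unadjusted p under 0.05.

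**Figure D4:**
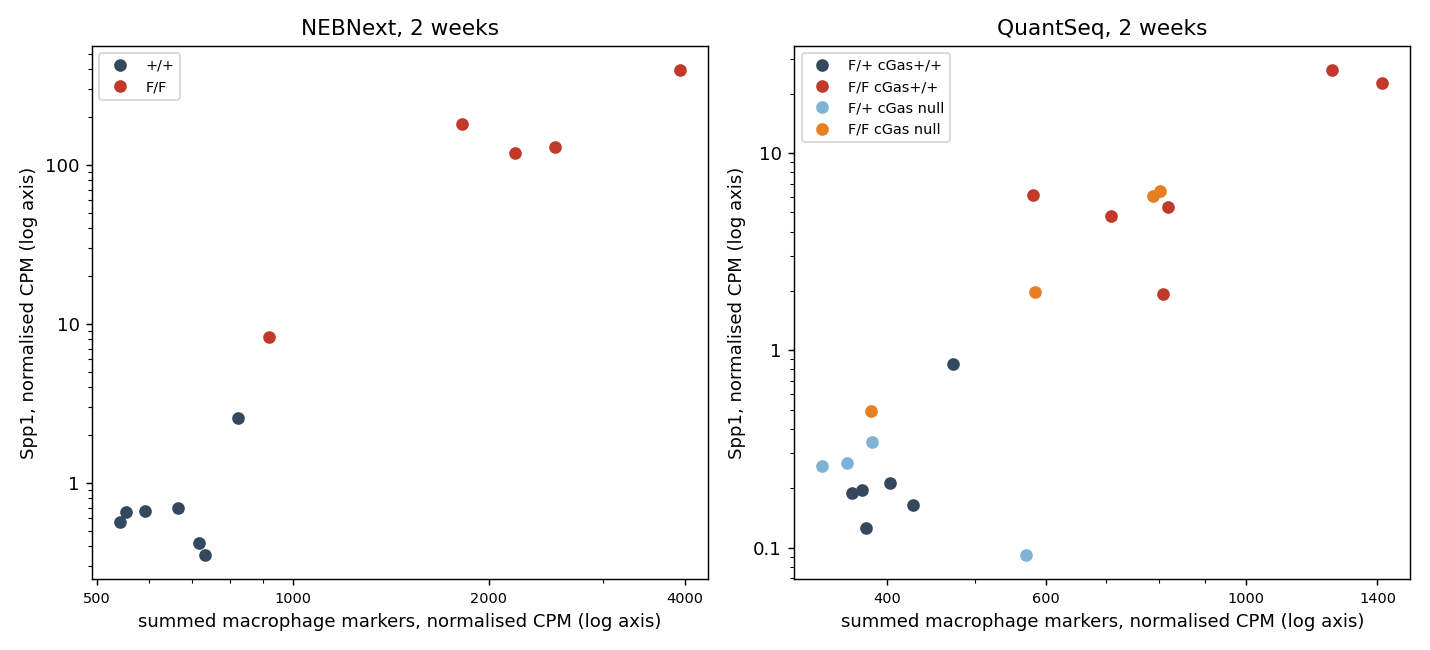
Spp1 against the summed level of 10 macrophage markers in each 2-week heart (normalised CPM, both axes log), NEBNext at left and QuantSeq at right, coloured by genotype. In NEBNext every F/F heart is above every +/+ heart on both axes, with F/F replicate 1 (920 and 8.25 CPM) next to the +/+ hearts. In QuantSeq the F/F hearts with cGas replicates 1 and 5 are highest on both axes.

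Genes whose pattern over the 20 QuantSeq libraries was most like that of a member were found by the root mean square (RMS) difference between centred log2(CPM + 1) profiles, a description without a test. The distance favours genes that vary as little as the member, so it is read against the member's own standard deviation (SD). Spp1 (SD 1.50) lay nearest to Ccr2, a chemokine receptor of monocytes (RMS 0.45), Ccl7 (0.47) and Il1rn (0.52), and among members to Tnc (0.41). Tnc (SD 1.32) lay nearest to Ccr2 (0.37), Aldh1a2 (0.38) and Il1rn (0.43). Postn (SD 1.20) lay nearest to Lgals3 (0.50), Col3a1 (0.53) and Fgl2 (0.55). Thbs4 (SD 0.63) lay nearest to Sla (0.23), Gpr35 (0.24) and the macrophage gene Adgre1 (0.24), and Sparc (SD 0.36) to Dap (0.12), Vim (0.14) and Sec61a1 (0.14). For Thbs1 (SD 0.43) they were Tlr1, Emp1 and Ppp1r18 (0.23 to 0.24), for Ccn4 (SD 0.39) Tuba1b, Adamts8 and Tuba1a (0.20 to 0.21), and for Ccn5 (SD 0.47) Slc11a1, Srpx2 and Pcdh19 (0.21 to 0.24). For Thbs2 (SD 0.33) they were Shc1, Lancl3 and Tent5c (0.20 to 0.21), and for Cthrc1 (SD 0.57) Hpse, C1s1 and Mmp23 (0.27 to 0.30).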

How the data were processed

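Heart RNA was sequenced from 26 NEBNext and 20 QuantSeq 3' FWD libraries, per the labels' protocols. The authors deposited raw read counts per gene and a second table. The submitters' processing notes name STAR 2.7.9 and the build mm39. In that table the NEBNext columns are deposited TPM, while the QuantSeq columns are deposited CPM (20 of 20 equalled the scaled count within 0.01). Counting tool, annotation and strand setting: not given in the sources used here. NEBNext counts grow with transcript length and QuantSeq counts depend on the annotated 3' end.

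The test on these counts was edgeR 4.0.16 under R 4.3.3 (TMM scaling, filterByExpr by group with minimum count 10 and total 15, glmQLFit, glmQLFTest), with Benjamini-Hochberg adjustment over all genes of a kit and a threshold of 0.05. All 10 members passed the filter in both kits. Each kit was fitted once, with sex and, in NEBNext, pool KIUC035 as covariates, over 15627 and 14812 genes. SE is the log2 fold change divided by the root of the F statistic. Normalised CPM use TMM-scaled library sizes. The procedure was tested on simulated data. Alternatives were DESeq2 1.42.0, no filter, limma 3.58.1 (trend) on log2 of the deposited values plus 1, no covariates, only the groups compared, single pools, and leaving out each library.

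Groups follow the labelled genotype, time and kit. Replicate numbers were given in accession order and do not pair samples. Each sample title carries its own number and each library is counted as 1 heart, but no label states that these are separate mice. If they are not, p-values measure the spread between libraries, which may be technical. Of 93 pairs of replicates 0 were identical (lowest chi-square per degree of freedom 9.70). All 10 members are named in every comparison, and of the 3 lists of other matricellular genes, receptors and inducers at most 5 per comparison, those of smallest p. The members and lists were chosen with earlier results of these data known. Promoter windows are RefSeq's on GRCm38.p6, a build other than that of the counts, and give no coordinates for them. Where RefSeq lists 2 windows for a gene, the one with most GENCODE vM21 starts within 50 bases was used.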

Additional observations from a re-analysis of the deposited data

Results flagged for a closer look

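In each group of 4 to 7 libraries, the gap between the most extreme library and its nearest neighbour was compared with Dixon's 95% critical value for each of the 10 genes. This was done 80 times and 11 gaps passed, where about 1 in 20 pass by chance if values are independent and normally distributed. CPM of few reads are skewed and the 10 genes share libraries, so the rate expected here is not known. Of the 11, 5 belonged to 1 library, Lmna F/+; cGas +/+ replicate 6: Spp1 at 0.857 CPM (next highest 0.213), Tnc at 1.80 (0.420), Postn at 38.4 (18.1), Thbs2 at 5.40 (2.27) and Cthrc1 at 2.19 (0.0840). At 2 weeks +/+ replicate 5 stood apart for Spp1 (2.57 CPM, next 0.697) and Ccn5 (16.0, next 7.66). At 1 week F/F replicate 4 stood apart for Spp1 (0.991 CPM, next 0.232) and Cthrc1 (0.425, next 0.166), both on few reads. At 1 week +/+ replicate 1 was high for Sparc (708 CPM, next 491) and +/+ replicate 5 low for Tnc (0.229 CPM, next 0.532).

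The Lmna effect differed between 1 and 2 weeks, by the test of the difference, for Spp1 (6.88 on the log2 scale), Cthrc1 (5.53), Tnc (4.49), Postn (2.98), Thbs4 (2.77), Thbs1 (2.60) and Ccn4 (2.16).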

How the results depend on the processing

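No paired analysis was possible because replicate numbers were given in accession order and do not pair samples across groups. At 2 weeks the count of 9 genes called higher fell to 4 within pool KIUC033, where 301 of all 13970 genes tested were called higher. Without cGas the 2 calls, among 74 genes higher in all, became 5 with no low-count filter (459 in all). They became 4 with only the 2 groups compared (237 in all). With limma on the deposited CPM (13 in all) and without covariates (20 in all) they became 1 each. Leaving out 1 library gave 8 to 9 calls at 2 weeks, where 1681 to 2877 of all genes were called higher. It gave 4 to 9 for the difference between 2 weeks and 1 week (7 with all libraries, 582 to 1637 over all genes). With cGas it gave 2 to 8 (5 with all libraries, 176 to 796 over all genes), and without cGas 1 to 3 (7 to 169 over all genes). The calls lost were Ccn5 at 2 weeks (without F/F replicate 2), and, for 2 weeks minus 1 week, Tnc, Postn and Thbs1 without 2-week F/F replicate 2, Spp1 and Thbs1 without 1-week +/+ replicate 5 and Tnc without 1-week +/+ replicate 4. With cGas they were Postn and Thbs4 without F/+ replicate 1 or 3 and Thbs1 without F/+ replicate 1, and without cGas Tnc without F/+ replicate 3 or F/F replicate 4. With no filter, 2 genes were called lower at 11 days (Postn -1.07, Thbs1 -1.11), 1 (Spp1) in cGas null/null against cGas +/+ F/F hearts and 2 (Tnc, Cthrc1) in the F/+ hearts. The cause was not tested.

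Signs turned for uncalled values only. With limma these were Thbs4 (0.039), Ccn4 (0.024) and Cthrc1 (0.016) at 1 week, Thbs2 at 2 weeks (0.24) and without cGas (0.067), and Postn (-0.22) for the cGas difference. With only the groups compared they were Spp1 at 11 days (0.12), and Sparc (-0.015) in F/F and Postn (0.82) in F/+ hearts for cGas null/null against +/+. Within KIUC035 it was Thbs2 (0.019). Without covariates they were Thbs2 for 2 weeks minus 1 week (-0.0060) and without cGas (0.021), then Thbs4 (-0.25), Ccn4 (0.11) and Sparc (0.022) for the cGas difference, Sparc (-0.0037) in F/F, and Ccn4 (-0.32), Ccn5 (0.21) and Sparc (-0.026) in F/+ hearts. With DESeq2 it was Sparc (-0.0062) in F/F hearts.

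Leaving out 1 library turned the sign of the following, given as lowest and highest value. At 1 week they were Spp1 (-0.62 to 0.57), Postn (-0.057 to 0.33), Thbs4 (-0.24 to 0.015), Ccn5 (-0.053 to 0.25) and Cthrc1 (-0.77 to 0.17). At 11 days they were Spp1 (-1.29 to 0.87), Tnc (-0.20 to 0.93), Thbs2 (-0.42 to 0.15), Ccn5 (-0.70 to 0.0024) and Cthrc1 (-1.89 to 0.059). Thbs2 ranged from -0.19 to 0.15 at 2 weeks and from -0.17 to 0.019 without cGas. For the cGas difference they were Spp1 (-1.005 to 0.32), Postn (-0.41 to 0.45), Thbs1 (-0.25 to 0.057), Thbs4 (-0.087 to 0.29), Ccn4 (-0.45 to 0.054), Ccn5 (-0.38 to 0.011), Sparc (-0.23 to 0.10) and Cthrc1 (-1.02 to 3.16). For cGas null/null against +/+ they were Sparc (-0.16 to 0.15) and Cthrc1 (-1.55 to 0.19) in F/F, and Postn (-0.85 to 0.0054), Ccn4 (-0.24 to 0.26), Sparc (-0.10 to 0.090) and Cthrc1 (-3.48 to 0.60) in F/+ hearts.

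Over all genes at 2 weeks 2537 were higher and 2025 lower, against 5253 and 705 with limma on TPM, where the median of all genes was 0.21, and 301 and 157 within KIUC033. For 2 weeks minus 1 week they were 1019 and 919, against 1535 and 586 with limma. With cGas 554 and 132 became 767 and 287 with DESeq2, 929 and 254 with no filter and 678 and 26 with limma. Without cGas 74 and 4 became 229 and 22 with DESeq2, 459 and 56 with no filter, 237 and 9 with only the 2 groups, 20 and 1 without covariates and 13 and 0 with limma. At 1 week 1 and 3 became 13 and 7 with DESeq2 and 53 and 56 with no filter, and at 11 days 0 and 0 became 5 and 25 with DESeq2 and 42 and 159 with no filter. Genes of few reads (Cthrc1, Spp1 and Tnc in controls) had the widest intervals.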

Other observations

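Among Lmna F/F; cGas null/null hearts the 2 males (replicates 1 and 4) had more Spp1 (6.39 and 6.04 CPM) than the 2 females (1.97 and 0.494), and likewise more Tnc (6.59 and 10.7 against 1.36 and 0.782) and Thbs4 (22.6 and 23.4 against 8.49 and 9.72). Among F/F; cGas +/+ hearts the males stood at 26.3, 6.15 and 22.7 CPM of Spp1 and the females at 5.35, 1.93 and 4.80. At 2 weeks in the time course the 2 male F/F hearts were the lowest and the highest of the 5 (8.25 and 395 CPM).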
